A study of Macaca fascicularis with 23 samples.

Results

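The genes DPPA2, DPPA4, L1TD1, LIN28A and LIN28B were followed across culture media and cell lines of the cynomolgus monkey (Cm, Macaca fascicularis). They were taken as the rows of the RPM table that carry these 5 names, out of 8415 genes in the table, and all 5 were present. RPM is the number of reads of a gene scaled by the total of its library. The gene IDs in the table are 102129918 (DPPA2), 102116348 (DPPA4), 102143457 (L1TD1), 102141639 (LIN28A) and 102132012 (LIN28B). The genes were chosen by their names with their RPM levels in the 3 media and in the somatic cells already known, so those levels are a description and carry no test. The origin of a line (ESC or iPSC) was not named in the choice, and it was tested. The levels of each line were among those known, so these tests are not independent of the choice.

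The 21 pluripotent stem cell (PSC) libraries came from 7 lines, each cultured in 3 media and sequenced once per medium. CMK6, TRSK and CMK9 are ESC lines. Of the iPSC lines, iPS-L3 and iPS-L6 were reprogrammed from liver cells, and iPS-S6 with iPS-S12 from stomach cells, all of 1 female foetus, with episomal vectors that carried LIN28 itself beside OCT3/4, L-MYC, SOX2, KLF4 and a hairpin against p53. Primed cells were grown in bFGF/KSR medium. Naïve-like cells were grown in K5cLD medium, which holds 5 chemicals, LIF and doxycycline (Dox), and they carried Dox-inducible human KLF2 and NANOG transgenes and an EOS reporter. Differentiated cells were the naïve-like cells moved to K5c medium, without LIF and Dox, so they carried the same transgenes. The primed cells are not described as carrying them. In comparisons with primed cells, called differences between media below, medium and transgenes therefore cannot be told apart. Single libraries of cultured somatic liver and stomach cells completed the set. The lines served as replicates, but the 4 iPSC lines share a donor, so origin and donor cannot be told apart.

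DPPA2 and DPPA4 encode nuclear proteins with a SAP domain that bind each other and sit on chromatin in early embryos, germ cells and PSCs. Their genes are close neighbours. L1TD1 encodes an RNA-binding protein derived from the first open reading frame of a LINE-1 element and is expressed in undifferentiated PSCs. LIN28A and LIN28B encode paralogous RNA-binding proteins with a cold-shock domain and zinc knuckles, which block the maturation of let-7 microRNAs and are known from embryonic and stem cells. All of these genes are widely used as signs of an undifferentiated state.

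Reads per library, found from the step between values, ranged from 861000 to 7986000, and the level of 3 reads, taken as the floor of detection, lay between 0.376 and 3.49 RPM. Levels are given as RPM per library and as mean ± SD of log2(RPM + 1) over 7 lines. The SD describes the spread of single lines and does not measure whether a mean difference departs from 0. Genes above 4 on that scale in 1 or more PSC libraries were taken as expressed (2776 genes), and all 5 genes passed. The table holds only part of the transcriptome, and the paper counted many more expressed genes at this threshold. Ranks and shares among the 2776 genes are therefore within that part. DPPA2 was above 4 in 2 of 7 primed, 6 of 7 naïve-like and 4 of 7 differentiated libraries. The other 4 genes exceeded 4 in every primed and naïve-like library. The primed iPS-S12 library stood apart from the other primed libraries. Its markers of pluripotent cells (6 genes) summed to 513 RPM, against 691 to 999 RPM in the other 6, and it held 466 RPM of mesenchyme markers (8 genes), a sum exceeded only by primed TRSK at 677 RPM. None of the 6 pluripotent markers was at 0 in that library. The marker lists, like the other gene lists below, were chosen with earlier results of these data known, so counts of calls from them are a description. Within-line differences are therefore also given without iPS-S12, and the part of these markers in the results was not tested.

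In naïve-like cells DPPA2 was higher than in the primed cells of the same line in all 7 lines. The primed ESC libraries had 20.9 RPM (CMK6), 17.6 RPM (TRSK) and 13.7 RPM (CMK9). The primed iPSC libraries had 2.35 RPM (iPS-L3), 3.49 RPM (iPS-L6), 0.651 RPM (iPS-S6) and 0.664 RPM (iPS-S12). Every primed iPSC library was below every primed ESC library, and the values of iPS-S6 and iPS-S12 rest on 1.5 reads each, under the floor of 3 reads.

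The naïve-like DPPA2 levels were 105 RPM in CMK6, 27.1 RPM in TRSK, 40.6 RPM in CMK9, 45.3 RPM in iPS-L3, 26.6 RPM in iPS-L6, 10.9 RPM in iPS-S6 and 135 RPM in iPS-S12. Thus the line with the highest naïve-like level, iPS-S12, was among the lowest in primed medium. In differentiated cells DPPA2 was at 18.6 RPM (CMK6), 16.5 RPM (TRSK), 13.7 RPM (CMK9), 26.6 RPM (iPS-L3), 4.99 RPM (iPS-L6), 4.25 RPM (iPS-S6) and 15.2 RPM (iPS-S12). The ranges of the media overlapped, although all 7 lines had their highest level in naïve-like medium. In bulk libraries such as these, fewer cells that express a gene and less RNA per cell cannot be told apart.

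The mean DPPA2 level was 2.56 ± 1.61 in primed cells, 5.42 ± 1.20 in naïve-like cells and 3.73 ± 0.89 in differentiated cells (log2(RPM + 1), SD, n = 7). The naïve-like minus primed difference within lines was 2.86 ± 1.85 on this scale, from 0.59 in TRSK to 6.36 in iPS-S12, and 2.27 ± 1.11 without iPS-S12. Only 3 of the 2776 expressed genes had a larger mean difference in this direction. DPPA2 was the only one of the 5 genes that was higher in 7 of 7 lines, as were 9.73% of the expressed genes. This count is a description, as are the other counts over media. From naïve-like to differentiated cells the within-line difference was -1.69 ± 0.91 (-1.46 ± 0.73 without iPS-S12), and it was negative in 7 of 7 lines. Mesenchyme markers (8 genes, with ELN at 0 in all PSC libraries) had a lower median sum in naïve-like than in primed cells, 76.2 RPM (37.4 to 148 RPM) against 145 RPM (103 to 677 RPM). Of 5 expressed mesenchyme markers, COL6A1, a collagen gene, fell by 2.06 on the log2 scale (standard error 0.53, limma adjusted p = 0.00929), beside 8.18% of expressed genes called lower, and the other 4 were not called. Among these, TWIST1 had a positive difference (1.38, standard error 0.65, limma adjusted p = 0.145), and COL1A2, COL8A1 and PRRX1 had negative ones. The part of these markers in the DPPA2 difference was not tested.

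Between differentiated and primed cells the DPPA2 difference was slightly negative in the ESC lines and positive in the iPSC lines, although the interaction did not pass the test (limma adjusted p = 0.468). In the ESC lines the within-line difference was -0.08 ± 0.08 (SD, n = 3), so the differentiated level was close to the primed level. In the iPSC lines it was 2.10 ± 1.33 (SD, n = 4), with higher differentiated levels in all 4. Of the media, naïve-like came first in the order of DPPA2 levels, followed by differentiated and primed, and the mean difference between the latter pair (1.16 ± 1.5, and 0.81 ± 1.29 without iPS-S12) was within the spread over lines.

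DPPA4 was lower in differentiated cells than in the naïve-like cells of every line. It had 124 RPM (CMK6), 133 RPM (TRSK), 170 RPM (CMK9), 120 RPM (iPS-L3), 89.5 RPM (iPS-L6), 71.4 RPM (iPS-S6) and 36.3 RPM (iPS-S12) in primed medium. In naïve-like medium it had 161 RPM (CMK6), 186 RPM (TRSK), 159 RPM (CMK9), 126 RPM (iPS-L3), 156 RPM (iPS-L6), 55.1 RPM (iPS-S6) and 83.2 RPM (iPS-S12). The naïve-like and primed ranges overlapped widely, and iPS-S6 and iPS-S12 were the lowest lines in both. The differentiated levels were 12.1 RPM (CMK6), 39.2 RPM (TRSK), 47.5 RPM (CMK9), 39.3 RPM (iPS-L3), 29.3 RPM (iPS-L6), 14.9 RPM (iPS-S6) and 9.35 RPM (iPS-S12). All of them lay below all naïve-like levels. Of the primed levels, only that of iPS-S12 (36.3 RPM) lay within the differentiated range.

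The mean DPPA4 level was 6.61 ± 0.73 in primed cells, 6.96 ± 0.63 in naïve-like cells and 4.61 ± 0.90 in differentiated cells (log2(RPM + 1), SD, n = 7). Its differentiated minus naïve-like difference within lines was -2.35 ± 0.74, from -3.63 in CMK6 to -1.65 in iPS-L3. Its differentiated minus primed difference was -2.0 ± 0.59. Without iPS-S12 the same differences were -2.24 ± 0.74 and -2.03 ± 0.64. The naïve-like minus primed difference, 0.35 ± 0.53, was smaller than its spread, with 5 lines higher and 2 lower, and it was 0.21 ± 0.42 without iPS-S12. The higher naïve-like level that DPPA2 had in all lines was thus not seen in all lines for DPPA4, its neighbour.

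L1TD1 had nearly the same profile over media as DPPA4. Its primed levels were 133 RPM (CMK6), 79.6 RPM (TRSK), 240 RPM (CMK9), 90.6 RPM (iPS-L3), 145 RPM (iPS-L6), 113 RPM (iPS-S6) and 19.9 RPM (iPS-S12). The primed iPS-S12 library was far below the other primed libraries. The naïve-like levels were 188 RPM (CMK6), 162 RPM (TRSK), 158 RPM (CMK9), 109 RPM (iPS-L3), 123 RPM (iPS-L6), 107 RPM (iPS-S6) and 82.9 RPM (iPS-S12). In differentiated cells L1TD1 had 12.1 RPM (CMK6), 27.0 RPM (TRSK), 27.0 RPM (CMK9), 68.0 RPM (iPS-L3), 34.6 RPM (iPS-L6), 32.9 RPM (iPS-S6) and 13.7 RPM (iPS-S12). These were again below all naïve-like levels, with iPS-L3 the nearest to them. Of the primed levels, only that of iPS-S12 (19.9 RPM) lay within the differentiated range.

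The mean L1TD1 level was 6.61 ± 1.10 in primed cells, 7.01 ± 0.41 in naïve-like cells and 4.79 ± 0.81 in differentiated cells (log2(RPM + 1), SD, n = 7). The differentiated minus naïve-like difference was -2.22 ± 0.99, from -3.86 in CMK6 to -0.67 in iPS-L3, and the differentiated minus primed difference was -1.81 ± 1.15. Without iPS-S12 they were -2.17 ± 1.07 and -2.03 ± 1.08. The naïve-like minus primed difference was 0.41 ± 0.88, with 4 lines higher and 3 lower, and 0.14 ± 0.57 without iPS-S12. On withdrawal of LIF and Dox, 3 of the 5 genes (DPPA2, DPPA4 and L1TD1) were lower in 7 of 7 lines, as were 10.8% of the expressed genes, and 2 of the 5 (DPPA4 and L1TD1) were lower without overlap of the groups, as were 2.92%. Against primed cells, DPPA4 and L1TD1 were lower in 7 of 7 differentiated lines, as were 6.88% of the expressed genes.

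Markers of neural progenitors (the 5 of 15 listed genes that were in the table) had a median sum of 380 RPM (288 to 573 RPM) in primed cells. On the same withdrawal their median sum went from 216 RPM (96.9 to 388 RPM) in naïve-like to 456 RPM (347 to 745 RPM) in differentiated cells. Of 4 expressed markers, 3 were called higher, beside 6.41% of expressed genes, which were ZIC1, a zinc finger gene (2.19, standard error 0.62, limma adjusted p = 0.0196), POU3F2, a POU factor gene (1.81, standard error 0.58, limma adjusted p = 0.0372), and NES, which encodes nestin (0.92, standard error 0.30, limma adjusted p = 0.0403). These calls were lost without the filter on low values and when some single lines were left out, namely CMK6, TRSK or iPS-S6 for ZIC1 (limma adjusted p up to 0.0687), CMK6, TRSK, iPS-L3, iPS-S6 or iPS-S12 for POU3F2 (up to 0.115) and CMK6, iPS-L6, iPS-S6 or iPS-S12 for NES (up to 0.177). A pseudocount of 0.1 also took away the calls of ZIC1 (limma adjusted p = 0.0795) and POU3F2, and a fit without the trend that of NES. Against primed cells ZIC1 was called higher (2.59, standard error 0.62, limma adjusted p = 0.00613), beside 6.27% of expressed genes. The other 3 were not, among them NES (0.15, limma adjusted p = 0.795) and POU3F2 (1.33, limma adjusted p = 0.127). HES5 was at most 1.66 RPM in the PSC libraries. Mesenchyme markers summed to a median of 218 RPM (30.8 to 303 RPM) in differentiated cells, and COL6A1 was not called on withdrawal (0.39, standard error 0.53, limma adjusted p = 0.700). Against primed cells COL6A1 was lower (-1.67, standard error 0.53, limma adjusted p = 0.0379), beside 7.13% of expressed genes. This call was lost without TRSK, iPS-L3, iPS-L6 or iPS-S6 (limma adjusted p up to 0.114). EOMES, the only expressed endoderm and mesoderm marker, was also called lower against primed cells (-3.01, standard error 0.54, limma adjusted p = 0.000542). AFP, the only expressed hepatocyte marker, was not called in any medium comparison. The part of these markers in the lower levels of DPPA2, DPPA4 and L1TD1 was not tested.

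**Figure D1:**
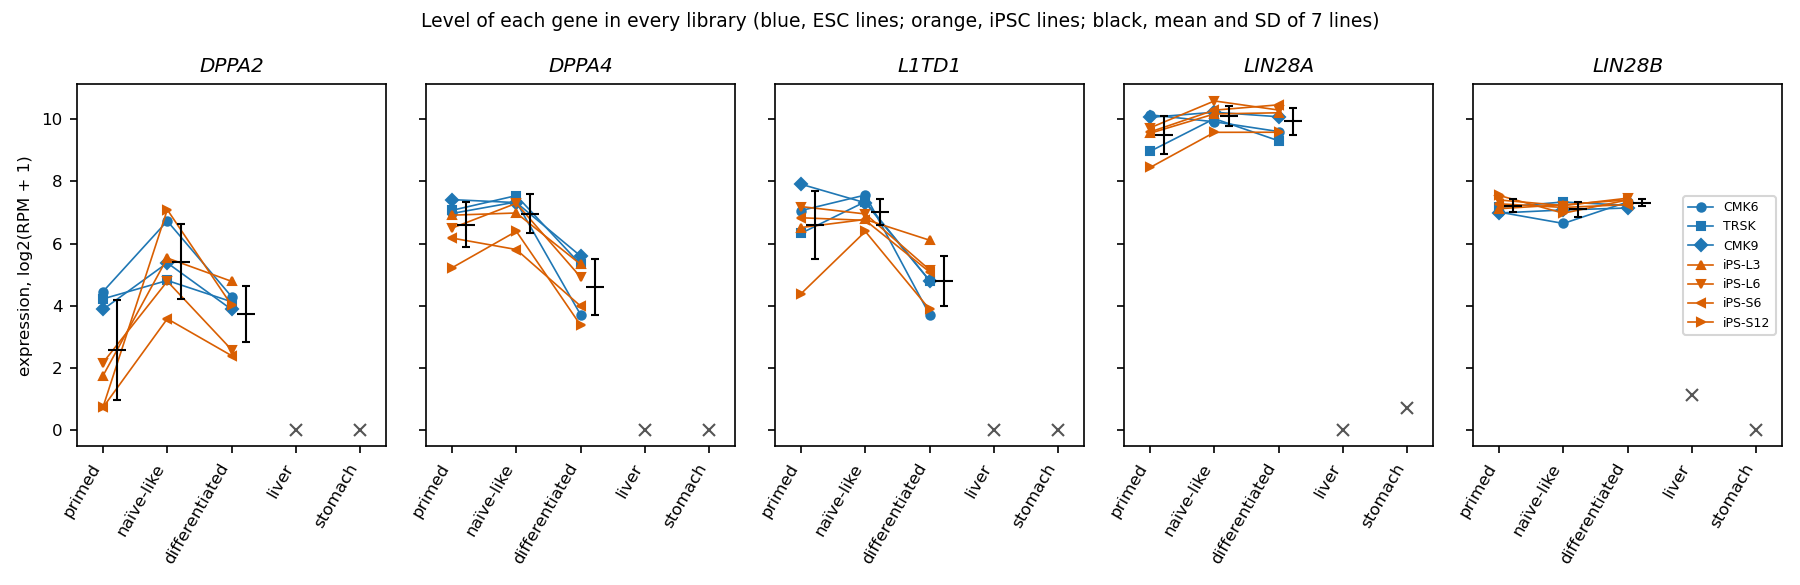
Level of each gene as log2(RPM + 1) in the 21 PSC libraries, joined by line (blue, 3 ESC lines; orange, 4 iPSC lines), with the mean and SD over 7 lines in black and the liver and stomach libraries as crosses. DPPA2 peaked in naïve-like cells, DPPA4 and L1TD1 were lowest in differentiated cells within every PSC line, LIN28A was lowest on average in primed cells, and LIN28B varied least.

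LIN28A levels before and after removal of LIF and Dox differed by less than their spread over lines. It had 1132 RPM (CMK6), 501 RPM (TRSK), 1071 RPM (CMK9), 751 RPM (iPS-L3), 847 RPM (iPS-L6), 773 RPM (iPS-S6) and 349 RPM (iPS-S12) in primed medium. In naïve-like medium it had 969.96 RPM (CMK6), 1039.8 RPM (TRSK), 1200.3 RPM (CMK9), 1156 RPM (iPS-L3), 1545 RPM (iPS-L6), 1258 RPM (iPS-S6) and 766 RPM (iPS-S12). The differentiated levels were 779 RPM (CMK6), 634 RPM (TRSK), 1086 RPM (CMK9), 1186 RPM (iPS-L3), 1261 RPM (iPS-L6), 1417 RPM (iPS-S6) and 768 RPM (iPS-S12). The 3 ranges overlapped, and iPS-S12 was the lowest line in primed and in naïve-like medium.

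The mean LIN28A level was 9.50 ± 0.60 in primed cells, 10.12 ± 0.32 in naïve-like cells and 9.94 ± 0.44 in differentiated cells (log2(RPM + 1), SD, n = 7). The naïve-like minus primed difference was 0.62 ± 0.49, with 6 lines higher and CMK6 lower, and 0.53 ± 0.47 without iPS-S12. The differentiated minus naïve-like difference, -0.18 ± 0.29 (-0.21 ± 0.31 without iPS-S12), was smaller than its spread, with 3 lines higher and 4 lower. The differentiated minus primed difference was 0.44 ± 0.56, with 6 lines higher, and 0.32 ± 0.51 without iPS-S12, while without CMK6 it exceeded its spread (0.60 ± 0.39). LIN28A levels in differentiated and naïve-like cells were thus neighbours in order that did not differ beyond the spread over lines.

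LIN28B varied least of the 5 genes between lines and media. Its levels were 128 RPM (CMK6), 143 RPM (TRSK), 126 RPM (CMK9), 138 RPM (iPS-L3), 169 RPM (iPS-L6), 155 RPM (iPS-S6) and 186 RPM (iPS-S12) in primed medium. They were 99.4 RPM (CMK6), 161 RPM (TRSK), 135 RPM (CMK9), 151 RPM (iPS-L3), 149 RPM (iPS-L6), 142 RPM (iPS-S6) and 125 RPM (iPS-S12) in naïve-like medium. The differentiated levels were 161 RPM (CMK6), 149 RPM (TRSK), 141 RPM (CMK9), 169 RPM (iPS-L3), 175 RPM (iPS-L6), 152 RPM (iPS-S6) and 169 RPM (iPS-S12). The primed iPS-S12 library, lowest of the primed libraries for DPPA4, L1TD1 and LIN28A, was the highest of all 21 for LIN28B.

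The mean LIN28B level was 7.22 ± 0.21 in primed cells, 7.10 ± 0.23 in naïve-like cells and 7.32 ± 0.11 in differentiated cells (log2(RPM + 1), SD, n = 7). The within-line differences were -0.12 ± 0.28 (naïve-like minus primed), 0.22 ± 0.26 (differentiated minus naïve-like) and 0.10 ± 0.17 (differentiated minus primed). Each of them was smaller than its spread, with 3, 6 and 5 of the 7 lines higher in that order. Without iPS-S12 they were -0.044 ± 0.21, 0.19 ± 0.27 and 0.145 ± 0.139, so the last then exceeded its spread. The differentiated minus naïve-like difference exceeded its spread with library centring (0.264 ± 0.233) and without TRSK (0.278 ± 0.242).

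**Figure D2:**
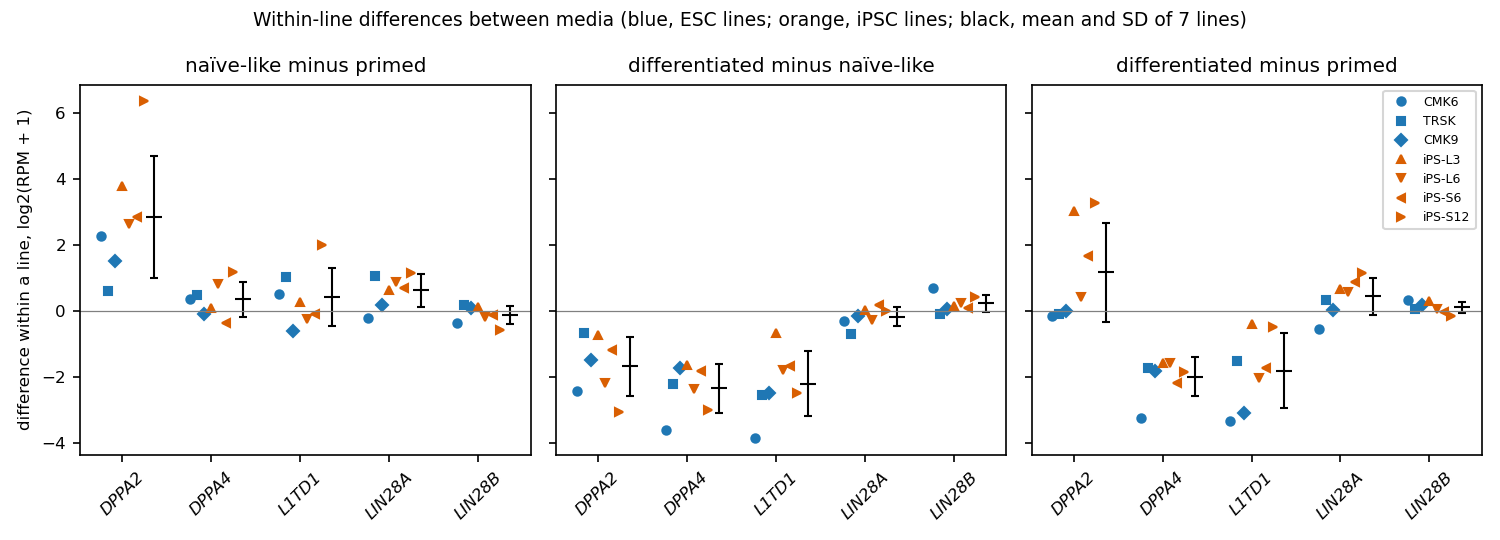
Within-line differences of log2(RPM + 1) between media for the 5 genes, 1 point per line (blue, ESC lines; orange, iPSC lines), with the mean and SD of 7 lines in black. All 7 points of DPPA2 were above 0 for naïve-like minus primed, and all 7 points of DPPA2, DPPA4 and L1TD1 were below 0 for differentiated minus naïve-like.

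In the somatic libraries the 5 genes were at or under the floor. DPPA2, DPPA4 and L1TD1 were listed at 0 in both liver and stomach. With 1704000 reads for liver and 3084000 for stomach, a count of 0 allows a level of up to 1.76 RPM and 0.973 RPM (3 reads). LIN28A was at 0 in liver and had 2 reads in stomach, or 0.649 RPM (95% Wilson interval 0.178 to 2.37 RPM). LIN28B had 2 reads in liver, or 1.17 RPM (0.322 to 4.28 RPM), and was at 0 in stomach. These intervals and floors cover counting error only. The lowest PSC levels were 9.35 RPM for DPPA4, 12.1 RPM for L1TD1, 349 RPM for LIN28A and 99.4 RPM for LIN28B, all above these intervals. For DPPA2 the lowest PSC level, 0.651 RPM in primed iPS-S6, was within what the somatic libraries allow.

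The label of the liver library went against its markers. All 8 hepatocyte markers in the table, albumin and alpha-fetoprotein among them, were at 0, and mesenchyme markers summed to 5193 RPM. The stomach library held 452 RPM of stomach epithelium markers, including TFF2 at 166 RPM, beside 5212 RPM of mesenchyme markers. The zeros of DPPA2, DPPA4 and L1TD1 thus describe cultures rich in mesenchyme transcripts, and none of the 5 genes was measured here in hepatocytes.

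ESC and iPSC lines were then compared within each medium, with limma over the 2776 expressed genes. The spread was pooled over the 3 media, with the 3 libraries of a line treated as independent. In primed medium DPPA2 was lower in the iPSC lines, at 1.34 ± 0.73 (SD, n = 4) against 4.18 ± 0.29 (SD, n = 3) in the ESC lines on the log2(RPM + 1) scale. The difference was -2.84 (standard error 0.66, limma adjusted p = 0.0284), lower in 4 of 4 iPSC lines. This was the only call among the 5 genes, beside 0.72% of expressed genes called lower in iPSC lines. The levels of each line were known when the genes were chosen, so this p-value is not independent of the choice. The call depended on single lines, since leaving out CMK6, TRSK, CMK9, iPS-L3 or iPS-L6 gave adjusted p values from 0.051 to 0.106, while leaving out iPS-S6 or iPS-S12 kept it (0.038 and 0.0325). The difference itself was -3.12 to -2.64 over these fits. Without the filter on low values the limma adjusted p was 0.0608, and without the primed iPS-S12 library alone it was 0.0776. An exact permutation test on the 3 and 4 lines gave p = 0.0571 (two-sided), the smallest that the design allows.

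DPPA4 was also lower in every primed iPSC library than in every primed ESC library, so 2 of the 5 genes were lower without overlap, as were 5.4% of the expressed genes. The primed difference of DPPA4 was -0.95 (standard error 0.47) and did not pass the test (limma adjusted p = 0.331). In naïve-like medium DPPA4 and L1TD1 were lower in all iPSC lines without overlap (5.01% of the expressed genes), by -0.78 (standard error 0.47, limma adjusted p = 0.629) and -0.69 (standard error 0.52, limma adjusted p = 0.72). The naïve-like difference of DPPA2 was -0.39 (standard error 0.66, limma adjusted p = 0.879), and that of the differentiated cells was -0.66 (standard error 0.66, limma adjusted p = 0.711), beside 0.216% of expressed genes called lower in iPSC lines in each of these media. L1TD1 differed between origins by -0.87 in primed cells and 0.62 in differentiated cells (standard error 0.52 each). LIN28A differed by -0.40 (standard error 0.31) in primed cells, 0.10 (standard error 0.31) in naïve-like cells and 0.47 (standard error 0.31) in differentiated cells, and LIN28B by 0.28, 0.13 and 0.14 (standard error 0.15 each). None of these passed, with limma adjusted p of at least 0.368. Over the means of the 3 libraries of each line, DPPA2 was lower in iPSC lines by -1.30 (standard error 0.41, limma adjusted p = 0.153), and DPPA4 by -0.73 (standard error 0.33, limma adjusted p = 0.329). No gene of the 5 was called there, while 1.62% of the expressed genes were called.

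Whether the response to the media differed between origins was tested as an interaction. For the naïve-like minus primed step of DPPA2 the iPSC lines had 3.91 ± 1.71 (SD, n = 4) and the ESC lines 1.45 ± 0.84 (SD, n = 3). The difference of 2.45 (standard error 0.93) had a limma p of 0.0154 before adjustment and a limma adjusted p = 0.910, so the primed difference of DPPA2 between origins was not shown to be particular to that medium. For the other 4 genes, and for the differentiated minus naïve-like step of all 5, the limma adjusted p was 0.999 or above. By limma no gene was called in either interaction, with 133 and 109 genes at an unadjusted p under 0.05.

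**Figure D3:**
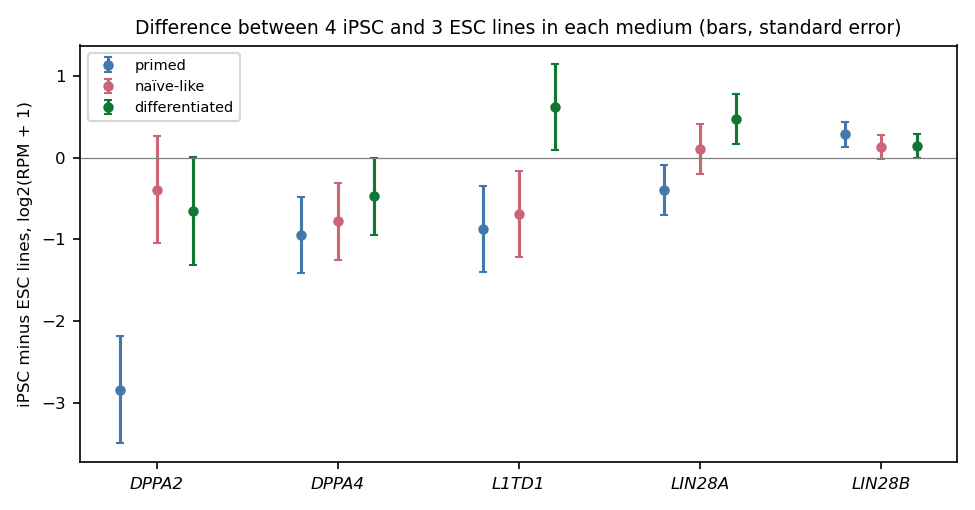
Difference of log2(RPM + 1) between the 4 iPSC and the 3 ESC lines for each gene in primed, naïve-like and differentiated cells, with the limma standard error as bars. The primed DPPA2 value at -2.84 is the only one whose adjusted p was under 0.05.

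The levels of DPPA4 and L1TD1 moved together across the 21 PSC libraries, which share 7 lines and 3 media. Pearson's r of log2(RPM + 1) was 0.899 between them, and 0.719 after the mean of each medium was removed. L1TD1 and LIN28A had r = 0.367 over the libraries and 0.736 within media. The primed iPS-S12 library was the lowest primed library for DPPA4, L1TD1 and LIN28A. Correlations were not computed without it, so its part in these values was not tested. The gene most like DPPA4 among the 2776 was POU5F1, which encodes OCT3/4 (r = 0.946, and 0.82 within media), followed by L1TD1 and MOV10 (r = 0.863), which encodes an RNA helicase. The genes most like L1TD1 were JARID2, a subunit of Polycomb repressive complexes (r = 0.935), POU5F1 (r = 0.920) and KCND2, a potassium channel gene (r = 0.909). POU5F1 was, like DPPA4 and L1TD1, lowest in differentiated cells (4.04 on the log2 scale against 8.18 in naïve-like cells) and listed at 0 in liver and stomach.

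DPPA2 was less like DPPA4 than L1TD1 was, although both DPPA genes were lower in 7 of 7 lines on withdrawal. Their r was 0.313 over the 21 libraries and 0.432 within media, and 580 genes were more like DPPA2 than DPPA4 was. The genes most like DPPA2 were LOC102140883 (r = 0.95), AGK (r = 0.832), which encodes a mitochondrial lipid kinase, and ATPAF1 (r = 0.822), which encodes an assembly factor of the ATP synthase. LIN28A was most like LOC102129632 (r = 0.907), the histone gene H2AC25 (r = 0.828) and NUP205 (r = 0.828), which encodes a nuclear pore protein. LIN28B was most like OLFML2B (r = 0.828), SLC35F1 (r = 0.769) and ENPP1 (r = 0.762), and its r with DPPA2, DPPA4, L1TD1 and LIN28A was negative in each case, from -0.58 to -0.22.

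**Figure D4:**
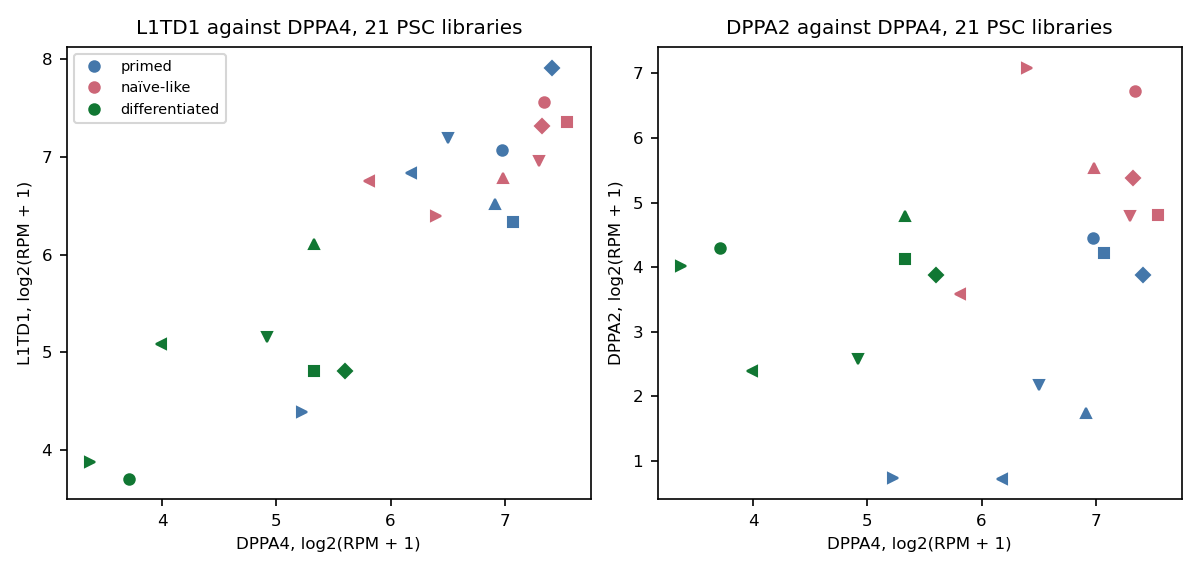
L1TD1 (left) and DPPA2 (right) against DPPA4 in the 21 PSC libraries, all as log2(RPM + 1), coloured by medium, with marker shapes for lines as in the plot of levels by library. L1TD1 lay along DPPA4 (r = 0.899), with the differentiated libraries low on both axes, whereas DPPA2 was spread over a wide range at similar DPPA4 levels (r = 0.313).

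The row most like DPPA2 may share reads with it. LOC102140883 is annotated as a transcribed pseudogene in RefSeq (assembly T2T-MFA8v1.1). In 6 libraries the DPPA2 value came to a number of reads ending in 0.5, and these were the same 6 libraries in which the LOC102140883 value did so. The pseudogene row had 28.0% to 83.2% of the DPPA2 level in the naïve-like libraries and was at 0 in liver and stomach. How reads were divided between the rows was not tested, so the DPPA2 level is uncertain to that extent. When both rows were summed, the naïve-like minus primed difference was 2.91 ± 1.92 (SD, n = 7) and the primed iPSC minus ESC difference -3.24 (standard error 0.71, limma adjusted p = 0.0239). The values of DPPA4 did not come to whole reads in 10 of 21 libraries. Those of L1TD1 and LIN28B were whole in every library with a value above 0, within 0.06 reads. The gene ID of the row named L1TD1 was not among the RefSeq gene IDs used here, so that row was identified by its name alone. Another row, LOC102143050, whose gene ID carries the symbol L1TD1 in RefSeq, was above 0 in 1 of 23 libraries (1.75 RPM).

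**Figure D5:**
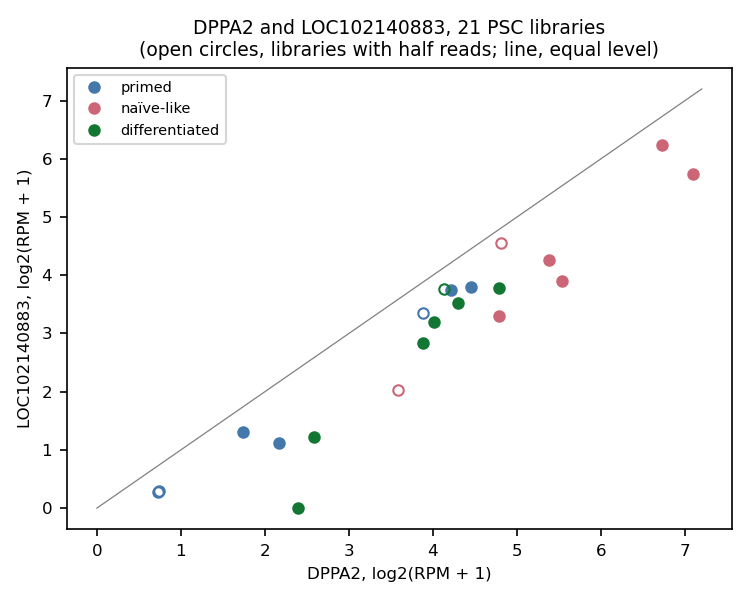
LOC102140883 against DPPA2 as log2(RPM + 1) in the 21 PSC libraries, coloured by medium. Open circles are the 6 libraries in which both rows came to a number of reads ending in 0.5, the grey line marks equal levels, and the 2 rows moved together (r = 0.95).

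The neighbours of these genes on the chromosomes were read in the same comparisons, and differences between a gene and its neighbour were not tested. Only the order of genes was taken from RefSeq assembly T2T-MFA8v1.1, which is not the build of the table, and that of L1TD1 from the place this assembly gives to its symbol. Next to DPPA2 and DPPA4, MORC1, a gene of male germ cells, and GUCA1C were at 0 in all PSC libraries. On the other side, PVRL3, a nectin cell adhesion gene, fell by 0.65 on the log2 scale (standard error 0.20, limma adjusted p = 0.0254) from primed to naïve-like cells, where DPPA2 was higher. It did not pass from naïve-like to differentiated cells (difference 0.01, limma adjusted p = 0.977), where both DPPA genes were lower, and it was lower in differentiated than in primed cells by -0.63 (standard error 0.20, limma adjusted p = 0.0346). Of the neighbours of L1TD1, USP1, a deubiquitinase gene, and TM2D1 were expressed and were not called in any medium comparison (limma adjusted p of at least 0.142). Next to LIN28A, RPS6KA1, an S6 kinase gene, fell by 1.13 (standard error 0.26, limma adjusted p = 0.00493) on withdrawal, where LIN28A differed by -0.18. DHDDS was not called in any medium comparison (limma adjusted p of at least 0.114). ARID1A, a chromatin remodelling gene further along, was lower in naïve-like than in primed cells by -0.53 (standard error 0.18, limma adjusted p = 0.0428) and in differentiated than in primed cells by -0.58 (standard error 0.18, limma adjusted p = 0.0358). HACE1 and ASCC3, beside LIN28B, were not called (limma adjusted p of at least 0.483), and the HACE1 differences of -0.17, 0.21 and 0.04 were near those of LIN28B. Leaving out CMK6, CMK9 or iPS-S12 took the naïve-like call of PVRL3 away (limma adjusted p up to 0.117), and leaving out CMK6, CMK9, iPS-L3, iPS-L6 or iPS-S12 took that of ARID1A away (up to 0.124). The differentiated calls were lost without CMK6, CMK9, iPS-L6, iPS-S6 or iPS-S12 for PVRL3 (up to 0.112) and without CMK9, iPS-L3, iPS-S6 or iPS-S12 for ARID1A (up to 0.155). Without the filter on low values, these differentiated calls and the naïve-like call of ARID1A were also lost.

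Genes of the pathway in which LIN28 proteins act were read from lists. Of 23 listed genes of the let-7 and microRNA machinery, only 5 had a row in the table, and 4 of these were expressed. The listed genes without a row were not measured here. AGO1, an Argonaute gene, was the only call. It was lower in naïve-like than in primed cells by -0.48 (standard error 0.16, limma adjusted p = 0.0343), beside 8.18% of expressed genes called lower, and in differentiated than in primed cells by -0.55 (standard error 0.16, limma adjusted p = 0.0195), beside 7.13%. Of 36 listed let-7 targets, 12 were in the table, and all 12 were expressed. Of these 12, 2 fell from primed to naïve-like cells and 10 were not called. These were PLAGL1, a zinc finger gene (-1.42, standard error 0.38, limma adjusted p = 0.0119), and IGF2BP2, an RNA-binding protein gene (-0.50, standard error 0.17, limma adjusted p = 0.0426). On withdrawal, PLAGL1 rose by 1.96 (limma adjusted p = 0.00118) and E2F2 by 1.22 (limma adjusted p = 0.04996, and 0.05002 with the line as a block, past the threshold on the other side), beside 6.41% of expressed genes called higher, and the other 10 were not called. E2F2 was also higher in differentiated than in primed cells by 1.35 (limma adjusted p = 0.0317), beside 6.27%. The median difference of the 12 targets was -0.05, -0.01 and 0.01 in the 3 comparisons, near the medians of all expressed genes (0.06, -0.02 and 0.05). The calls of AGO1, IGF2BP2 and E2F2 were lost when any of several single lines was left out (limma adjusted p up to 0.102, 0.14 and 0.201), and that of PLAGL1 against primed cells without iPS-L3 (0.0583). Those of IGF2BP2 and E2F2, and that of AGO1 in naïve-like cells, were also lost without the filter on low values.

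The other pluripotency-associated genes were set beside DPPA4 and L1TD1. Their list was chosen with earlier results of these data known, so its count of calls is a description. Only 12 of its 42 genes had a row in the table, and those without a row were not measured here. Of 9 expressed genes of the list, which shares POU5F1 and others with the marker list above, 4 fell on withdrawal, beside 7.71% of expressed genes called lower, and 5 were not called. They were HESX1, a homeobox gene (-4.97, standard error 0.42, limma adjusted p = 2.27e-08), CRIPTO, a Nodal coreceptor gene (-5.59, standard error 0.52, limma adjusted p = 9.41e-08), POU5F1 (-4.14, standard error 0.54, limma adjusted p = 1.25e-05) and JARID2 (-1.23, standard error 0.28, limma adjusted p = 0.00399). The median of the 9 was -1.75, so the differences of DPPA4 (-2.35) and L1TD1 (-2.22) lay between those of JARID2 and POU5F1. That of LIN28A (-0.18) was nearer to 0 than all 4, which were named because they were called. Of the genes not called, SOX2 (0.09, standard error 0.25, limma adjusted p = 0.859) was nearer to 0 than LIN28A, and the others were further. From primed to naïve-like cells, HESX1 rose by 2.31 (limma adjusted p = 0.000605) and CRIPTO by 1.83 (limma adjusted p = 0.0172), beside 11.1% of expressed genes called higher, while LEFTY2, a Nodal target and inhibitor, fell by 2.11 (limma adjusted p = 0.0347) and 6 were not called. Against primed cells, 5 of the 9 were lower after withdrawal, beside 7.13% of expressed genes called lower: CRIPTO (-3.76), POU5F1 (-3.64), HESX1 (-2.66), LEFTY2 (-4.11) and JARID2 (-1.22), with limma adjusted p from 5.28e-05 to 0.00422. Of germline genes, which include genes studied as Dppa2 and Dppa4 targets in the mouse, 10 were in the table and 2 were expressed, and neither was called in any medium comparison. The calls of CRIPTO (without CMK6, iPS-L3 or iPS-S12) and LEFTY2 (without iPS-L3, iPS-L6, iPS-S6 or iPS-S12) in naïve-like cells were lost with limma adjusted p up to 0.0642 and 0.142. A pseudocount of 0.1 also took both calls away (limma adjusted p = 0.131 for CRIPTO). That of LEFTY2 was lost as well without the filter on low values, with only the compared media fitted and without the primed iPS-S12 library.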

How the data were processed

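SC3-seq reads the 3′ ends of amplified cDNA. Per the labels and methods, the authors amplified 1 ng of total RNA per library, sequenced 75 bp single reads and used cutadapt 1.3, TopHat 1.4.1 and Cufflinks 2.2.0. The deposited values are RPM, 1 column per library. The build named with the table is macfas5, and counting was unstranded. An incomplete last row was left out (1 row), leaving 8415 genes, part of the transcriptome, which summed to 24.8% to 27.5% of the reads of a library. By library, 86.7% to 92.9% of the values above 0 were whole multiples of 1 step (within 0.02 reads for small values), so tests for counts were not applied. Depth was read from that step, 861000 to 7986000 reads by library.

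Values were taken as log2(RPM + 1), which understates differences of low genes. Tests used limma 3.58.1 in R 4.3.3 with a mean-variance trend over 2776 genes (log2(RPM + 1) above 4 in at least 1 of 21 PSC libraries) and Benjamini-Hochberg adjusted p under 0.05. They were first run on simulated data without a line effect, which cannot show how false calls behave where libraries share lines. Media, and origin by medium, were each fitted over all 21 libraries, and origin also over 7 line means. Other computations used Python 3.11.15, numpy 2.4.6, pandas 2.3.3 and scipy 1.17.1. The lines are shared over media by their labels. Deviations of libraries from their medium's mean correlated at a mean of 0.269 for the 21 same-line pairs (over 0.1 in 18) and -0.084 for other pairs, so the line was fitted as a block in an alternative. The p-values over 21 libraries rest on a spread pooled over media. Without the block, these fits treat the 3 libraries of a line as independent. Only the fit over 7 line means has 1 value per line. No batches are named in the sources used here.

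The 5 genes and all lists were chosen with earlier results of these data known. Named beside them were the 3 most correlated genes, the 3 nearest annotated genes on each side in the table and, per list and comparison, up to 5 listed genes past the threshold. Of the 8415 gene IDs, 5564 matched RefSeq assembly T2T-MFA8v1.1, which gave 980 symbols. Only names and the order of genes were taken from it, since the build differs, and none of its coordinates are given. Sequences were not analysed here. Alternatives were a pseudocount of 0.1, no filter, a filter of 7 libraries, quantile normalization, centring, no trend, the block, only the compared media and each line left out. After seeing the data, DPPA2 summed with LOC102140883, the primed iPS-S12 library left out, and the origin difference of the differentiated minus primed step were added.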

Additional observations from a re-analysis of the deposited data

Results flagged for a closer look

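Among the 4 primed iPSC lines, LIN28A in iPS-S12 (349 RPM, against 751 to 847 RPM in the others) stood apart, with a gap of 0.864 of the range on the log2(RPM + 1) scale, above Dixon's 95% critical value of 0.829 for 4 samples. It was the only such gap in 30 groups examined, where chance gives about 1.5.

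The differentiated minus primed difference of DPPA2 had opposite signs by origin, below 0 in 3 of 3 ESC lines and above 0 in 4 of 4 iPSC lines, and its mean was 2.19 higher in the iPSC lines on the log2(RPM + 1) scale. The ESC differences were small (-0.16 to -0.0003), so their sign is uncertain. The share of expressed genes with such a split of signs was not counted. Tested as an interaction in limma, a comparison added after the signs were seen, the difference of 2.19 had a standard error of 0.93, a limma p of 0.0285 and a limma adjusted p = 0.468 (0.198 with the line as a block). The low primed DPPA2 levels of the iPSC lines enter this difference.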

How the results depend on the processing

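The 15 within-line differences of the 5 genes between media moved by less than the spread over lines under every alternative run, and their signs held, while 2 differences of LIN28B and 1 of LIN28A exceeded their spread in some of them, as stated with these genes. Among the origin tests of the 5 genes, the DPPA2 call in primed medium was lost as stated with it, and no other gene of the 5 gained a call. Values without a call changed sign when single lines were left out, and their ranges were -0.47 to 0.057 (L1TD1, line means), -0.13 to 0.29 (LIN28A, line means), -1.01 to 0.17 (DPPA2, naïve-like), -0.040 to 0.30 (LIN28A, naïve-like) and -0.058 to 0.29 (LIN28B, naïve-like). For the origin difference of the naïve-like minus primed step they were -0.083 to 0.43 (DPPA4) and -0.33 to 0.54 (L1TD1), and without the primed iPS-S12 library these became -0.16 and -0.43. For that of the differentiated minus naïve-like step they were -0.71 to 0.16 (DPPA2), -0.25 to 0.71 (DPPA4) and -0.15 to 0.25 (LIN28B).

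Counts of called genes depended more on the setting. With the line as a block, 585 genes in place of 372 were called for differentiated against primed cells, and 4 in place of 0 for the origin difference of that step, and E2F2 lost its call on withdrawal. The block changed no other call of a named gene. Without the trend, 24 in place of 45 were called over line means. Without the filter on low values, 38 in place of 20 were called between origins in naïve-like medium, and 8, 5 and 3 in place of 0 for the origin differences of the naïve-like minus primed, differentiated minus naïve-like and differentiated minus primed steps. Without the primed iPS-S12 library, 22 in place of 44 were called between origins in primed medium. With each line left out in turn, the counts were 302 to 527 (naïve-like against primed), 219 to 342 (differentiated against naïve-like), 241 to 392 (differentiated against primed), 9 to 160 (origin, line means), 15 to 46 (primed), 7 to 31 (naïve-like), 4 to 112 (differentiated) and 0 to 4 (origin difference, differentiated minus primed). The cause of these shifts was not tested. Depth limits the somatic values, at 0 to 2 reads, and DPPA2 in primed iPSC libraries, at 1.5 to 8.0 reads.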
